A study of Mus musculus with 2 samples.

Results

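Small leucine-rich proteoglycans (SLRPs) are secreted matrix proteins, and 10 of their genes known from cornea, sclera and other connective tissue were followed here in mouse eyeballs: Kera, Lum, Dcn, Bgn, Fmod, Ogn, Prelp, Omd, Aspn and Epyc. They were chosen by gene symbol from a deposited table of 47644 genes, and each symbol had a single row. Whole eyeballs of C57BL/6 mice were sequenced, with 1 library of control eyes, labelled NOR, and 1 library of the oxygen-induced retinopathy model, labelled OIR. In that model pups are kept in high oxygen, which halts and closes retinal vessels, and then return to room air, where the retina becomes hypoxic and new vessels sprout. The OIR pups entered hyperoxia at day 7, stayed for 5 days and were sampled at day 17. The labels do not give a separate age for the control, the number of eyes or animals behind each library, or their sex. By its stated purpose the series asks what goes with lasting visual dysfunction in the model.

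SLRPs carry a curved domain of leucine-rich repeats that binds collagen fibrils, and most bear chains of keratan sulfate or of chondroitin or dermatan sulfate. By binding fibrils they limit fibril diameter and set the spacing between fibrils, on which the transparency of the cornea and the strength of the sclera depend. They are grouped into classes by sequence: class I holds decorin (Dcn), biglycan (Bgn) and asporin (Aspn), class II holds keratocan (Kera), lumican (Lum), fibromodulin (Fmod), Prelp and osteomodulin (Omd), and class III holds osteoglycin (Ogn) and epiphycan (Epyc).

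The SLRP genes did not differ in a common direction. Decorin, osteoglycin, fibromodulin and lumican were lower in the OIR library, biglycan, Prelp and asporin were higher, and keratocan stood close to its control level. None of the 10 reached a 2-fold difference. With 1 library per group no difference has a replicate check, so no test was made and no p-value was computed, and the intervals below are exact 95% intervals for counting error only. In whole eyeballs a smaller number of cells of a type and less RNA per cell cannot be told apart.

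Reads counted over all genes came to 15741235 for the control library and 20378793 for OIR. A gene counts as tested where it reached an FPKM (reads per kilobase of transcript, scaled to library size) of 1 in either library, which 15883 genes did; 8 of the 10 SLRP genes passed, each with more than that level in both libraries, and Omd and Epyc did not. Differences are those of log2(FPKM + 1), with the control subtracted from OIR. This scale compresses differences of genes at low FPKM, and the median over all tested genes was 0.11. Beside the results below, markers of several other tissues differed between the libraries, and their part in the SLRP values was not tested. All 15 corneal and conjunctival epithelium markers were higher in OIR, beside 64.9% of all tested genes. Their summed FPKM was 403 in control and 1124 in OIR, with ratios of 3.56 for Krt5, 2.63 for Krt15 and 2.48 for Krt12. The summed lens markers stood at 158390 and 112801 FPKM. The mitochondrial ribosomal RNAs mt-Rnr1 and mt-Rnr2 had read-share ratios of 15.1 and 15.9.

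The genes lie in clusters, all coordinates being those of the table on mm10. Dcn (ENSMUSG00000019929, chr10:97479500-97518162), Lum (ENSMUSG00000036446, chr10:97565501-97572703), Kera (ENSMUSG00000019932, chr10:97607205-97613688) and Epyc (ENSMUSG00000019936, chr10:97644068-97682454) follow each other on the plus strand of chromosome 10. Aspn (ENSMUSG00000021388, chr13:49544443-49567557), Omd (ENSMUSG00000048368, chr13:49582766-49592609) and Ogn (ENSMUSG00000021390, chr13:49608071-49624500) do so on chromosome 13, after the family gene Ecm2. Prelp (ENSMUSG00000041577, chr1:133910304-133921414, minus strand) and Fmod (ENSMUSG00000041559, chr1:134037254-134048277, plus strand) are neighbours on chromosome 1, and Bgn (ENSMUSG00000031375, chrX:73483602-73495933) lies alone. The chromosome 13 genes sit inside the span of Cenpp on the other strand, whose exons in GENCODE M21 share 7 bases with those of Aspn and 0 with those of Omd and Ogn. Cenpp had 25 reads in the control and 27 in OIR, fewer than Aspn or Ogn in either library and more than Omd, with 4 and 6. Prelp shares 350 exon bases with Gm15851 and Epyc 1041 with Gm10754. Both of these genes lie on the other strand and had 0 reads in either library. The effect of shared bases on the counts was not tested.

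The bases just upstream of 4 of these genes are shown because they set 2 genes that were higher in OIR, Bgn and Prelp, beside 2 that were lower, Fmod and Ogn, and because Prelp and Fmod are chromosomal neighbours with opposite differences. Each is the 150 bases before the RefSeq start on GRCm38.p6, 5′ to 3′ on the gene's strand, with motif matches in capitals.
Bgn, chrX:73483451-73483600, plus strand: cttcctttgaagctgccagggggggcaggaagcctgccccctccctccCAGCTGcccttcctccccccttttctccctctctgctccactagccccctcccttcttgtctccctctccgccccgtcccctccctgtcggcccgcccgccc
Prelp, chr1:133921402-133921551, minus strand: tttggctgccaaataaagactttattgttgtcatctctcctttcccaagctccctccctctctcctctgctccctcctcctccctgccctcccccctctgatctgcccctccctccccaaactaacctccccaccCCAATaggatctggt
Fmod, chr1:134037104-134037253, plus strand: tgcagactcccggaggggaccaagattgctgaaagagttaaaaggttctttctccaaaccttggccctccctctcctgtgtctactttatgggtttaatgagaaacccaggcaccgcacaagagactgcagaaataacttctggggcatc
Ogn, chr13:49607865-49608014, plus strand: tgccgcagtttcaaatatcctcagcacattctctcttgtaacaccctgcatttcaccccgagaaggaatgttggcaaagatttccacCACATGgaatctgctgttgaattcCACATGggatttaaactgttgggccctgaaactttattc

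Upstream windows of 250 bases were searched on both strands for 5 motifs, and RefSeq windows were matched for 8 of the 10 genes, Lum and Dcn having no entry. The E-box CANNTG, the site of basic helix-loop-helix factors, was found in the windows of Bgn, Fmod, Ogn and Aspn. It was also found in the later of the 2 windows of Epyc, and occurs in 66.0% of all 27025 gene windows. The shares over all genes take a single window per gene, whereas both windows of Epyc were searched. The hypoxia response core, searched as ACGTG or GCGTG, was found in those of Bgn, Aspn and the earlier window of Epyc, and in 38.6% of all windows. The CCAAT box (CCAAT) was found in those of Kera, Prelp and Aspn, against 34.5% of all windows, the TATA box (TATAAA) in those of Ogn and Aspn, against 12.97%, and the AP-1 site (TGANTCA) in none of the 8 genes' windows, against 6.87%. The Bgn and Prelp windows were richer in G and C, at 64.4% and 55.6%, than those of Fmod, Ogn and Aspn, at 51.2%, 42.0% and 30.0%, so that the genes higher in OIR included both the highest and the lowest values. The TATA box matches lay far upstream, from -229 to -222 for Ogn and between -207 and -173 for Aspn, counted in bases from the start. Those of Ogn thus lie outside the bases shown above. A match is a description of the letters, and no binding was measured.

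In class I, decorin and biglycan went opposite ways and exchanged places as the most abundant transcript of the 10. Dcn, whose product binds type I collagen and TGF-beta, had 951 reads in the control and 746 in OIR, or 32.8 and 19.9 FPKM. Its read-share ratio of OIR over control was 0.606 (0.550 to 0.668) and its difference -0.70, and 1.68% of tested genes had a lower difference. Bgn, the closest relative of decorin and also a ligand of Toll-like receptors, had 651 and 1199 reads, or 28.3 and 40.2 FPKM. Its ratio was 1.42 (1.29 to 1.57) and its difference 0.49, the highest of the 10 on that scale. Bgn thus stood below Dcn in the control and above it in OIR. Aspn, which encodes asporin, a protein of periodontal ligament and cartilage, was much scarcer at 1.68 and 2.62 FPKM from 62 and 125 reads. Its ratio was 1.56 (1.14 to 2.15).

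**Figure D1:**
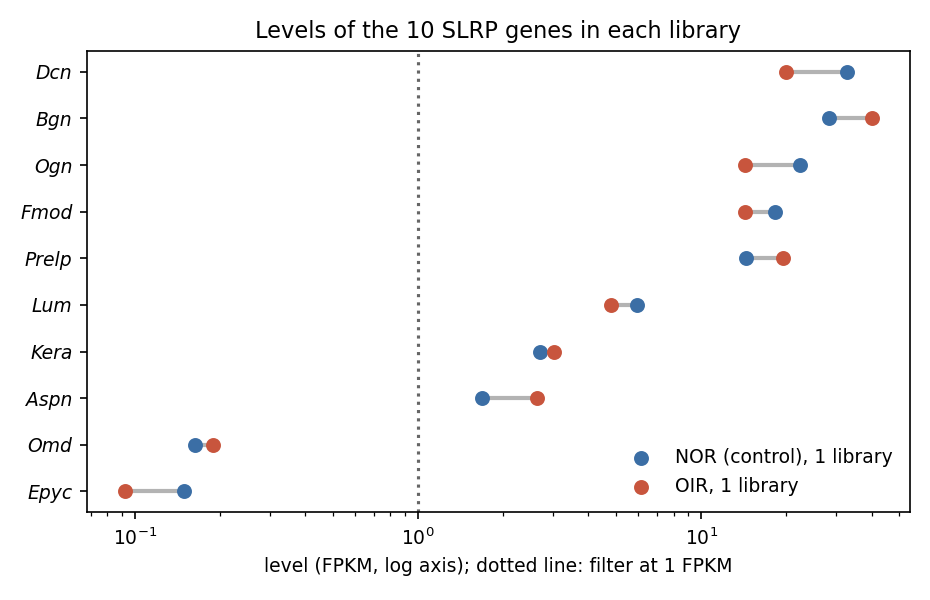
Level of each SLRP gene in FPKM on a log axis, with a blue point for the control library and a red point for the OIR library, and the filter at 1 FPKM as a dotted line. Dcn stands highest in the control at 32.8 and Bgn in OIR at 40.2, while Omd and Epyc lie under the filter in both libraries.

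The ratio of one SLRP to another within a library does not depend on how the libraries are scaled. The level of Dcn over Bgn was 1.16 in the control and 0.494 in OIR, so that this ratio was 0.426 times (0.371 to 0.489) its control value in OIR. Among the 28 pairs of the 8 tested genes, 19 had such a ratio of ratios with a counting interval that excluded 1, and 6 differed at least 2-fold. Those 6 each set Dcn or Ogn against Bgn, Prelp or Aspn. The same counts were not made for pairs of other genes, and the 28 pairs reuse the same 8 genes. The order of levels switched in 4 pairs, Dcn with Bgn, Fmod with Ogn, Fmod with Prelp and Ogn with Prelp, of which the pairs Fmod with Ogn and Ogn with Prelp did not switch when the deposited gene lengths were used. The switch of Fmod and Ogn rests on levels of 14.32 and 14.32 FPKM in OIR, which do not differ beyond counting error.

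In class II, the keratan sulfate proteoglycans of the corneal stroma were scarce, and both had ratios within 1.5-fold. Kera, the gene of keratocan, which the keratocytes of the corneal stroma make and whose loss flattens the cornea, had 83 reads in the control and 120 in OIR, or 2.70 and 3.02 FPKM. Its ratio of 1.12 had an interval of 0.837 to 1.496 that includes 1, and its difference of 0.12 was close to the median of all tested genes. Lum, which encodes lumican and is needed for a clear cornea, had 194 and 204 reads, or 5.94 and 4.82 FPKM. Its ratio was 0.812 with an interval of 0.664 to 0.994 that ends just below 1. The level of Kera over Lum was 0.455 in the control and 0.626 in OIR, and the ratio of these, 1.37 (0.963 to 1.97), was not distinguishable from 1 at this depth. Only 23.3% of tested genes in the control and 22.4% in OIR stood below Kera, so the defining keratocyte gene was detected, at a low level, in both whole-eyeball libraries.

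The other class II genes, Fmod and Prelp, are neighbours on chromosome 1 and differed in opposite directions. Fmod encodes fibromodulin, a collagen-binding protein of tendon and sclera, and had 524 and 533 reads, equal to 18.2 and 14.3 FPKM, and its ratio was 0.786 (0.695 to 0.888). Prelp, whose product links collagen to the heparan sulfate of basement membranes, had 505 and 883 reads, equal to 14.5 and 19.5 FPKM, and its ratio was 1.35 (1.21 to 1.51). Fmod was therefore the higher of the pair in the control and Prelp in OIR, and the level of Fmod over Prelp in OIR was 0.582 times (0.493 to 0.687) that in the control. Omd, the osteomodulin gene of bone, had 4 reads in the control and 6 in OIR, too few for a comparison. Its ratio of 1.16 had an interval of 0.275 to 5.58.

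In class III, Ogn was the gene with the second lowest difference among those tested, after Dcn. Ogn encodes osteoglycin, also called mimecan, a keratan sulfate proteoglycan in cornea, and had 891 reads in the control and 741 in OIR, or 22.3 and 14.3 FPKM. Its ratio was 0.642 (0.582 to 0.709) and its difference -0.60, with 2.41% of tested genes lower. Dcn and Ogn, of different classes and chromosomes, kept nearly the same ratio to each other, 1.47 in the control and 1.39 in OIR. Their ratio of ratios was 0.943 (0.821 to 1.08). That of Bgn over Prelp, also of different classes and chromosomes, was as close to 1, at 1.05 (0.908 to 1.22). Both pairs were named after their values were seen. Epyc, known from growth plate cartilage, had 5 and 4 reads, and its ratio of 0.618 had an interval of 0.123 to 2.87. At 0.149 and 0.0921 FPKM it lay near the level of 3 reads in each library, 0.0894 and 0.0691 FPKM.

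**Figure D2:**
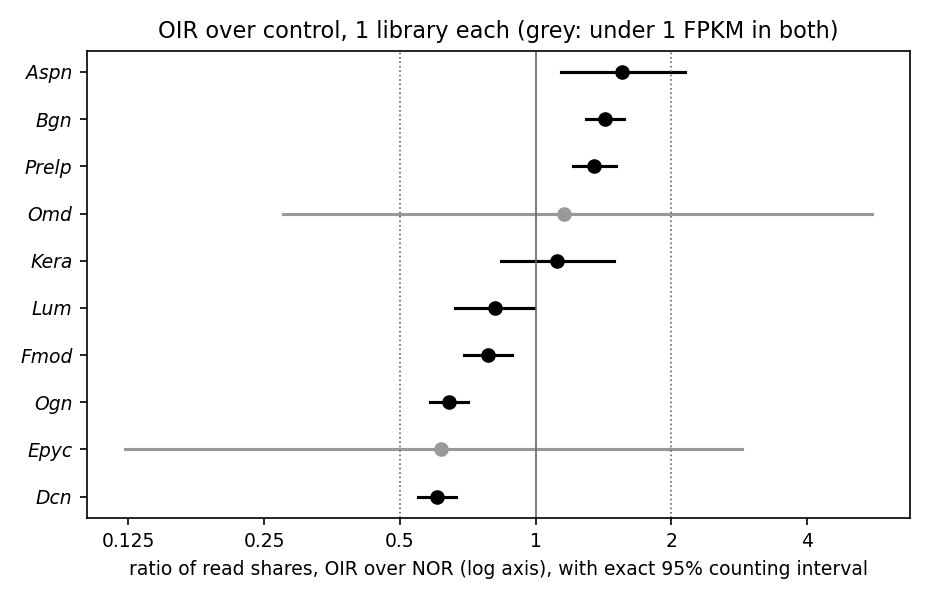
Ratio of read shares, OIR over control, for each SLRP gene on a log axis, with bars for the exact 95% counting interval; grey marks the genes under 1 FPKM in both libraries and dotted lines the 2-fold marks. Dcn, Ogn, Fmod and Lum lie below 1, Aspn, Bgn and Prelp above it, and every interval of a tested gene but that of Aspn, which reaches 2.15, stays within 2-fold.

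Read against all genes, the SLRP counts were these. At the 2-fold mark 0 of the 8 tested SLRP genes were higher and 0 lower, where 3.07% of all tested genes were higher and 0.718% lower. Past a 1.5-fold difference on the log2(FPKM + 1) scale 0 were higher and 2, Dcn and Ogn, were lower, where 9.11% and 2.58% of tested genes were. By the read-share ratio, which has no added 1, 1 gene, Aspn, was past 1.5-fold higher and 2, again Dcn and Ogn, lower, where 14.3% and 4.62% of tested genes were, and 0 were past 2-fold in either direction, where 6.38% were higher and 1.73% lower. The counting interval excluded 1 for 3 higher and 4 lower SLRP genes, where it did so for 36.7% and 14.7% of tested genes, so an interval clear of 1 is common at this depth. The median difference of the 8 was -0.07, with 4 above 0 and 4 below, beside 0.11 for all tested genes, of which 64.9% lay above 0. Among the 10111 tested genes with a mean FPKM in the range of these 8, from 2.15 to 34.3, the median was 0.12, and 1.87% were at least 1.5-fold lower and 8.08% higher. The median size of the difference, regardless of sign, was 0.42 for the 8 SLRP genes, 0.21 for the genes of that FPKM range and 0.22 for all tested genes.

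**Figure D3:**
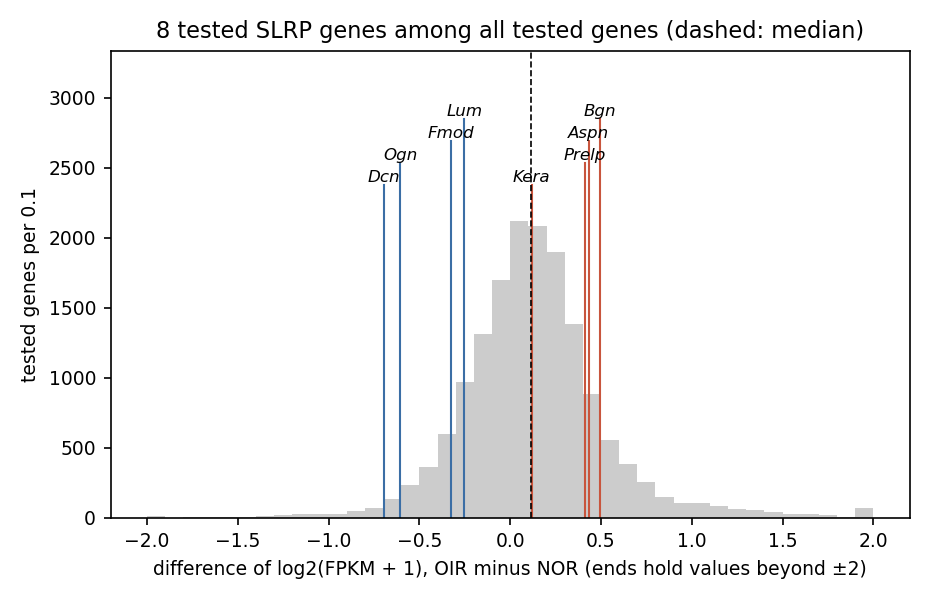
Histogram of differences in log2(FPKM + 1) between OIR and control (positive where OIR is higher) over the 15883 tested genes in grey, with the 8 tested SLRP genes as vertical lines (blue below 0, red above) and the median of 0.11 dashed. Dcn and Ogn lie in the lower tail at -0.70 and -0.60, Kera close to the median, and Bgn, Aspn and Prelp on the upper flank between 0.41 and 0.49.

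The SLRP transcripts together took nearly the same share of each library, while their makeup differed. The 10 genes had 3870 reads in the control and 4561 in OIR, or 246 and 224 RPM (reads scaled to library size), a ratio of 0.910 (0.872 to 0.950), and their summed FPKM was 127 and 119. Dcn made up 25.9% of this summed FPKM in the control and 16.7% in OIR, Bgn 22.3% and 33.8%, Ogn 17.6% and 12.02%, and Prelp 11.4% and 16.4%. Of the SLRP reads, Dcn took 24.6% (23.2 to 26.0) in the control and 16.4% (15.3 to 17.5) in OIR, and Bgn 16.8% (15.7 to 18.0) and 26.3% (25.0 to 27.6), by exact Clopper-Pearson intervals. Summed by class, class I stood at 62.8 FPKM in both libraries, class II at 41.5 and 41.9, and class III, nearly all of it Ogn, at 22.4 and 14.4. Within class I the equal sums hid the exchange of Dcn for Bgn, and within class II that of Fmod for Prelp. Summed by location, the chromosome 10 cluster had a read-share ratio of 0.673 (0.619 to 0.731) and the chromosome 13 cluster 0.704 (0.641 to 0.772), values set mostly by Dcn and Ogn, while the chromosome 1 pair had 1.06 (0.980 to 1.15).

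**Figure D4:**
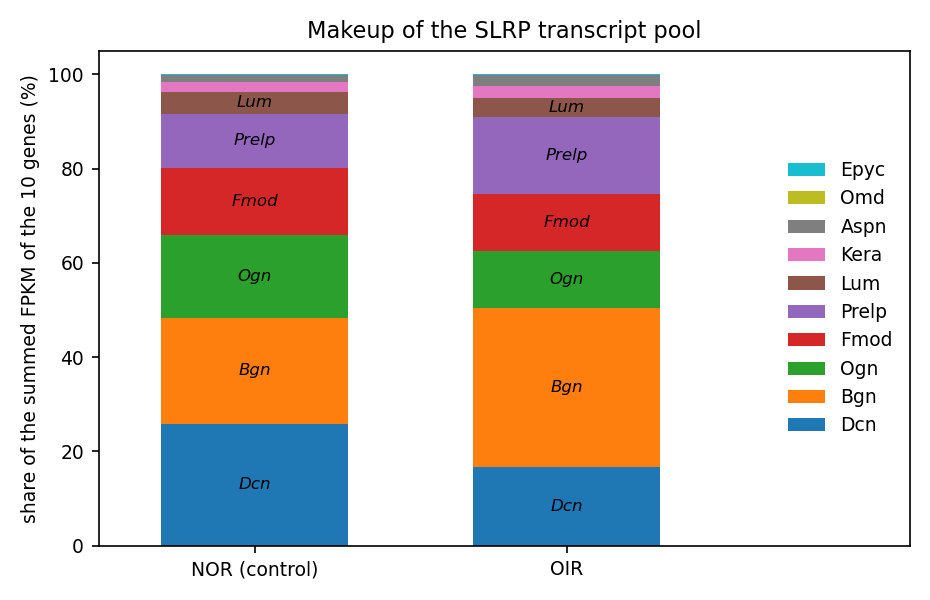
Share of each SLRP gene in the summed FPKM of the 10 genes, in percent, as stacked bars for the control and the OIR library. Bgn widens from 22.3% to 33.8% and Prelp from 11.4% to 16.4%, and Dcn narrows from 25.9% to 16.7% and Ogn from 17.6% to 12.02%.

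The order of levels between genes, and FPKM sums and shares over genes, depend on the gene length behind FPKM. The lengths implied by the authors' counts and FPKM were shorter than the deposited lengths for some genes, 1462 against 2666 bases for Bgn, 2219 against 3615 for Prelp and 1826 against 3120 for Fmod, and equal for Kera, Lum and Ogn. With the deposited lengths Bgn stood at 15.5 FPKM in the control, below Dcn at 32.0 and Ogn at 22.3, and at 22.1 in OIR, above Dcn at 19.4 and Ogn at 14.3. The order then switched in 3 pairs, Dcn with Bgn, Fmod with Prelp and Bgn with Ogn, while Ogn stood above Fmod and Prelp in both libraries. Ratios of a single gene between the libraries do not depend on this length. With all tested genes split into 20 groups by transcript length, the groups that hold the SLRP genes had median differences between 0.10 and 0.16. Relative to these Dcn, Ogn, Fmod and Lum had differences of -0.82, -0.76, -0.46 and -0.37, and Bgn, Aspn and Prelp 0.39, 0.28 and 0.26. Kera, at -0.01, then lay below 0.

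The authors' deposited table gives a comparison of the same 2 libraries under its own scaling. In the authors' deposited table Dcn has a log2 fold change of -0.86 and Ogn one of -0.78, Bgn 0.37 and Prelp 0.29, and Kera 0.02. The adjusted p of Dcn in the authors' deposited table is 0.42, and it compares 1 library with 1 library.

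Among the other SLRP family genes, opticin stood out in level and in difference. Optc, which encodes the SLRP of the vitreous and is made by the ciliary epithelium, lies next to Prelp on chromosome 1 (ENSMUSG00000010311, chr1:133897199-133907999), with a gap of 2304 bases. It had 1538 reads in the control and 954 in OIR, equal to 67.3 and 32.2 FPKM, for a ratio of 0.479 (0.441 to 0.520) and a difference of -1.04. In the control Optc was more abundant than any of the 10 genes, and in OIR only Bgn exceeded it. It was the only 1 of the 6 tested genes of this list past 2-fold, where 0.718% of all tested genes were lower and 3.07% higher. The 6 had a median difference of -0.12, with 2 above 0, or 33.3%, beside 64.9% of all tested genes. Podn, the podocan gene, had a ratio of 0.979 (0.855 to 1.12), Chadl 1.24 (1.03 to 1.495) and Nyx, the nyctalopin of retinal ON bipolar cells, 0.828 (0.704 to 0.974). Optc, Dcn and Ogn were lower in OIR, and Prelp, which Optc adjoins, was higher.

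Most enzymes that build the sugar chains of SLRPs lay within 2-fold between the libraries, as did most tested genes. By difference 3.07% of all tested genes were at least 2-fold higher and 0.718% lower. Of the 9 tested keratan sulfate genes 0 had a difference past 1 in either direction, with a median of 0.03. That median was below 0 under 4 of 12 alternatives, among them the authors' scaling factors. By the read-share ratio 1 of the 9 was past 2-fold lower, where 1.73% of tested genes were, and 0 higher, where 6.38% were. That 1 was the sulfotransferase gene Chst5, named after its values were seen, at 1.64 and 0.761 FPKM and a ratio of 0.463 (0.285 to 0.743). The galactosyltransferase B4galt1 and the sialyltransferase St3gal1 had ratios of 1.37 (1.26 to 1.48) and 1.35 (1.26 to 1.44), while St3gal2 and St3gal3 had 1.03 and 0.980. Of the 19 tested chondroitin and dermatan sulfate genes 0 were past 2-fold by difference or by ratio, with a median of 0.18 and 14 above 0, or 73.7% beside 64.9% of all tested genes. B3gat3, which completes the linker between protein and chain, had a ratio of 0.880 (0.815 to 0.951), the xylosyltransferase gene Xylt2 1.18 (1.04 to 1.34), the xylose kinase gene Fam20b 1.21 (1.10 to 1.33) and the chain-polymerising factor gene Chpf 1.11 (1.00 to 1.22). The 7 tested genes of sulfate supply had a median of -0.04, which was above 0 under 3 of 12 alternatives, with Papss1, which makes the sulfate donor, at 1.24 (1.12 to 1.37), the sulfate transporter gene Slc26a2 at 1.25 (1.13 to 1.39), Slc35b2 at 0.917 (0.815 to 1.03) and Bpnt1 at 0.868 (0.793 to 0.950). Differences ran from -0.59 to 0.43 in the keratan sulfate list, from -0.29 to 0.51 in the chondroitin and dermatan sulfate list and from -0.38 to 0.30 in the sulfate list, beside -0.70 to 0.49 for the SLRP core proteins.

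Collagens, the fibrils that SLRPs coat, were mostly higher in OIR where Dcn, Fmod and Lum were lower. Of the 13 tested collagen genes 11, or 84.6%, lay above 0, beside 64.9% of all tested genes. Their median difference was 0.38, beside 0.11 for all tested genes. At the 2-fold mark 2 were higher and 0 lower, where 3.07% and 0.718% of all tested genes were. Col1a1 and Col1a2, the chains of type I collagen, stood at 94.3 and 54.8 FPKM in the control and at 123 and 66.6 in OIR, with ratios of 1.30 (1.24 to 1.37) and 1.22 (1.15 to 1.29), and Col3a1 had 1.41 (1.30 to 1.52). The genes past 2-fold were Col2a1, of vitreous and cartilage, at 2.48 (2.33 to 2.65) and Col5a3 at 3.73 (3.15 to 4.45). Bgn was thus higher, as were the type I collagen chains, and Dcn and Fmod were lower.

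Genes that cut SLRPs or collagen precursors and genes of SLRP signalling had medians above that of all tested genes. The 11 tested genes of the protease list had a median difference of 0.37. Past 2-fold higher was 1 of them, where 3.07% of all tested genes were. Of the 11, 8 lay above 0, or 72.7%, a share near the 64.9% of all tested genes. That gene, Pcolce, encodes the enhancer of procollagen C-proteinase and stood at 47.8 FPKM in the control and 136 in OIR, a ratio of 2.85 (2.63 to 3.09). The serine protease gene Htra1 had 1.20 (1.14 to 1.27), the membrane-bound metalloproteinase gene Mmp14 1.503 (1.36 to 1.66) and Adamts1 1.31 (1.18 to 1.45). Of the 18 tested receptor and signalling genes 14 lay above 0, or 77.8%, and 0 had a difference past 1, with a median of 0.45. By the read-share ratio 2 of the 18 were past 2-fold higher, where 6.38% of all tested genes were, and 0 lower, where 1.73% were. These 2 were Tlr4, a Toll-like receptor of biglycan, at 2.67 (1.42 to 5.40), and the purinergic receptor gene P2rx7 at 2.07 (1.35 to 3.23). Both were named after their values were seen, and Tlr4 was scarce, with 13 reads in the control and 45 in OIR. Among the most abundant Lrp1, an endocytic receptor of decorin, had a ratio of 1.36 (1.30 to 1.41), the growth factor gene Tgfb2 1.25 (1.18 to 1.34), the VEGF receptor gene Kdr 1.40 (1.32 to 1.49) and the matricellular protein gene Wisp1 1.12 (1.01 to 1.25).

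Proteoglycans outside the SLRP family had a median difference of 0.27 over 21 tested genes, beside 0.11 for all tested genes. Of the 21, 14 lay above 0, or 66.7%, about the share of all tested genes, and 3 passed the 2-fold mark upward and 0 downward, where 3.07% and 0.718% of all tested genes were. Agrn, the basement membrane proteoglycan agrin, had a ratio of 2.19 (2.09 to 2.29), and Impg2 and Impg1, of the matrix around photoreceptors, 2.05 (1.97 to 2.14) and 1.43 (1.35 to 1.503). The syndecan gene Sdc3 had 1.21 (1.14 to 1.29) and the testican gene Spock2 0.855 (0.823 to 0.887). The third gene past 2-fold was Cspg4, of pericytes, at 0.821 and 2.69 FPKM, chosen after its values were seen.

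**Figure D5:**
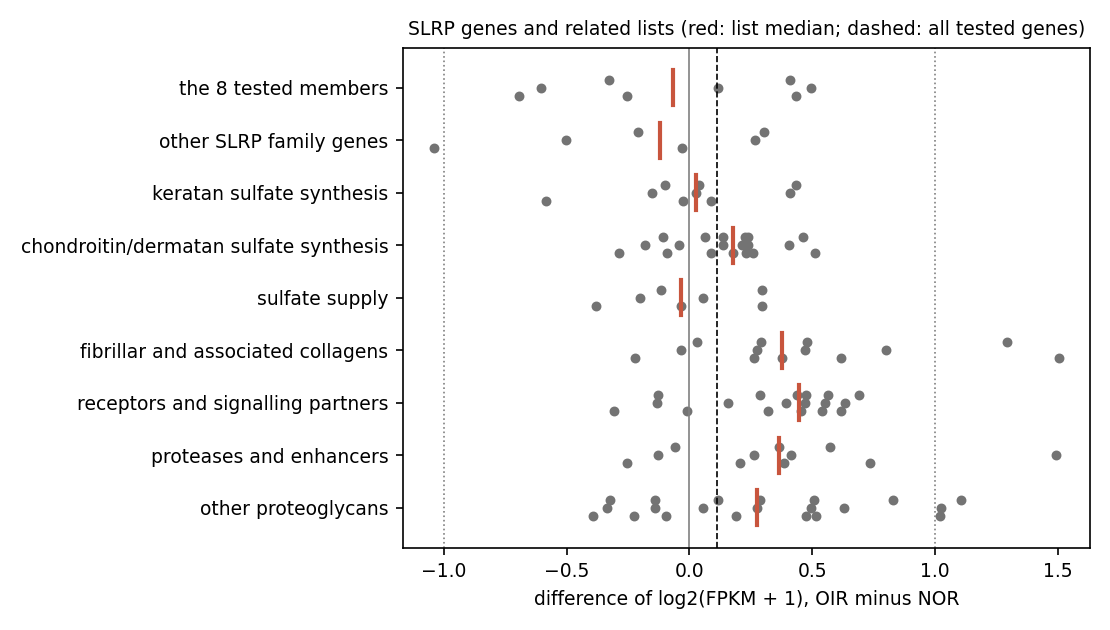
Difference in log2(FPKM + 1) between OIR and control (positive where OIR is higher) of each tested gene (grey points) in the SLRP set and in 8 related lists, with the list median in red, the median of all tested genes dashed and the 2-fold marks dotted. The SLRP genes spread to both sides, from -0.70 to 0.49, while the medians of collagens, receptors and proteases lie at 0.38, 0.45 and 0.37.

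Markers of the cells that could make these transcripts were set beside the SLRP values, and their part in them was not tested. The counts and medians below stand beside 64.9% of all tested genes above 0 and their median difference of 0.11. The 13 tested markers of scleral and connective tissue fibroblasts outside the SLRP family had a median of 0.17, with 10 above 0, or 76.9%. They summed to 304 FPKM in the control and 345 in OIR, a list led by the type I and type III collagen genes. The 7 keratocyte markers had a median of 0.06 with 4 above 0 and 3 below, and their 3 most abundant genes, Ptgds, Aldh3a1 and Tkt, had ratios of 0.761, 3.36 and 1.04; epithelium of the cornea also makes Aldh3a1. Members of these lists also stood lower in OIR, among them Mfap4 at a difference of -0.88, Angptl7 at -0.65 and Aldh1a1 at -0.45. Other keratocyte markers stood higher, with Col8a1 at 1.13 and Cd34 at 0.91. All of these were named after their values were seen. Of 5 tendon markers 4 lay above 0, with summed FPKM of 20.1 and 25.5, and Egr1, Thbs4 and Scx had ratios of 1.66 (1.48 to 1.87), 1.15 (0.922 to 1.45) and 0.810 (0.592 to 1.11). Of the 9 cartilage markers found 4 were tested, among them Col2a1, Col9a1 and Col9a3, which vitreous also holds, with ratios of 2.48, 0.598 and 1.19. The other 5 cartilage markers were under 1 FPKM in both libraries, from Matn1 with 0 and 2 reads to Hapln1 with 41 and 29. Of the 7 bone markers Alpl stood at 164 and 168 FPKM, Sp7 had 25 and 28 reads and Bglap 2 and 3, and Ibsp and Bglap2 had 0 in both. The 5 tested meningeal markers had a median of 0.26, with ratios of 1.20 for Mgp, 0.856 for Slc6a13 and 0.810 for Crabp2, and the 12 pericyte and smooth muscle markers a median of 0.58, with ratios of 0.811 (0.766 to 0.858) for Acta2, 1.69 (1.61 to 1.78) for Rgs5 and 1.16 (1.05 to 1.29) for Tagln. All 15 endothelial markers lay above 0, with summed FPKM of 152 and 261 and ratios of 1.40 for Kdr, 1.34 for Cldn5 and 1.44 for Egfl7. The 4 corneal endothelium markers had a median of 0.01, with Atp1b1 at 0.818, Tfap2b at 0.886 and Col8a2 at 1.24. Of the remaining lists, extraocular muscle markers had a median of 0.23, the 2 tested adipocyte markers 0.12, macrophage and microglia markers 0.48, erythrocyte markers 1.39, rod markers 0.03 and pigment epithelium markers 0.01. The marker lists with a median below 0 were lens at -0.51, mitochondrially encoded genes at -0.51, melanocyte and pigment markers at -0.34, Müller glia at -0.28 and the tested cartilage markers at -0.07.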

How the data were processed

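RNA sequencing of mouse eyeballs gave 1 NOR and 1 OIR library. Bowtie2 2.2.3, TopHat2 2.0.12, HTSeq 0.6.1 and mm10 are named in the submitters' processing notes; their settings, annotation and strand use: not given in the sources used here. The deposited table holds raw read counts and FPKM per gene, per the file headers. A scaled signal, which the authors made by dividing each library's counts by its own factor, served only for an alternative scaling. The authors' deposited log2 fold changes and p-values come from a tool not given in the sources used here. After 5 broken lines were dropped, symbols came from the table, or from GENCODE M21 by identifier.

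Differences of log2(FPKM + 1) were computed for genes at 1 FPKM or more in either library, with Python 3.11.15, pandas 2.3.3 and SciPy 1.17.1. A call is a difference of at least 1 or at most -1, which understates changes of scarce genes, so counts by the read-share ratio are given too. Ratios of read shares have exact conditional 95% intervals. They cover counting error only, since 1 library per group gives no spread between libraries. Reads lacking molecular identifiers may also repeat a molecule, for which these intervals do not allow. The interval calculation was tested on simulated data. For a median-length transcript 3 reads are 0.105 FPKM in NOR and 0.0814 in OIR. The genes and lists were chosen with earlier results of these data known. Named genes are the 10 SLRP genes, the 4 most abundant of each pathway list and its genes past 2-fold at 5 FPKM or more, and the 3 most abundant of a cell type list where that list is described. Other cell type lists are given by medians or sums. Any other gene was named after its values were seen. With 2 libraries no likeness of pattern between genes was measured. Alternatives were other pseudocounts, filters, scalings, thresholds and list summaries.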

Additional observations from a re-analysis of the deposited data

How the results depend on the processing

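Dcn, Ogn, Fmod and Lum kept differences below 0, and Bgn, Prelp and Aspn above 0, under each alternative that gave a value, with Dcn between -0.83 and -0.61 and Bgn between 0.36 and 0.59. Kera kept its sign in 9 of 10, and centring within 20 bins of transcript length gave -0.01. Ogn stood at -0.76 there. No tested SLRP gene passed 2-fold under any scaling, pseudocount, filter or gene length. A threshold of 1.5-fold called 2 lower, and the counting interval in place of size 3 higher and 4 lower. The median of the 8 SLRP genes was -0.29 with an FPKM filter of 5, which leaves out Kera and Aspn, and without single genes it was 0.12 (without Lum, Dcn, Fmod or Ogn) or -0.25 (without Kera, Bgn, Prelp or Aspn), so its sign rests on single genes. With centring by transcript length the median was 0.13 for the other proteoglycans, 0.03 for chondroitin and dermatan sulfate synthesis and -0.13 for keratan sulfate synthesis. The medians of keratan sulfate synthesis, from -0.13 to 0.12, and of sulfate supply, from -0.18 to 0.05, took both signs over the alternatives, and those of the other 6 lists kept theirs.

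Over all tested genes 487 were at least 2-fold higher and 114 lower. These counts were 924 and 254 with a pseudocount of 0.1, 998 and 273 with 0.01, 251 and 27 with an FPKM filter of 5, 1447 and 409 at 1.5-fold, 55 and 8 at 4-fold, and 5834 and 2341 by the counting interval. The lower count was 190 with TPM without lens, erythrocyte, mitochondrial and ribosomal RNA genes and 30 with CPM. The cause was not tested, other than the fewer genes under the filter and the stricter or looser thresholds. Higher genes made up 81.0% of calls, and between 72.2% (centred on the median) and 93.4% (CPM) under other settings. The median of all tested genes was 0.11, 0.20 with TPM and -0.01 with the authors' factors. Recomputing FPKM with the deposited gene length was chosen after seeing the data. No paired analysis was possible because each group has 1 library, and none could be left out. Omd and Epyc, with 4 to 6 reads, are limited by depth.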
